A study of Mus musculus with 8 samples.

Results

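The miR-124 hairpin gives rise to a pair of mature microRNAs (miRNAs), miR-124 and miR-124*, and both were followed here in basal progenitors of the mouse embryonic cortex. The members were the mouse probes named mmu-miR-124 or mmu-miR-124* on the array, 2 of its 611 mouse miRNAs, read by 4 of 1759 probes and 40 of 12220 spots. The hairpin was selected on the measured spot signals themselves, with its stage values and the wide spread of miR-124 among the arrays of the later stage already known, so levels and ratios of the arms are given as descriptions, without a test. Basal progenitors were collected by fluorescence-activated cell sorting from wild-type cortex at embryonic day 16 (E16, 4 arrays) and embryonic day 13 (E13, 4 arrays). Each array was a one-colour Agilent miRNA array hybridised with cyanine-3 labelled total RNA of 1 replicate. The design text speaks of 3 litters for 4 replicates of a stage, so some replicates may share a litter, and the spread between arrays is then not wholly a spread between litters. The sources used here do not give the gate of the sort, and the array holds no protein-coding marker of basal progenitors.

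A miRNA hairpin is cut by Dicer into a short duplex, of which usually 1 strand is loaded into an Argonaute protein and guides it to messenger RNAs, while the partner, or star, strand is mostly degraded. miR-124 is the guide strand and is known as a miRNA abundant in neurons, where it represses transcripts of other cell types and of progenitors, among them Ptbp1, a repressor of neuronal splicing, and components of the REST pathway. In the developing cortex it is known to be low in dividing progenitors and to increase as cells become neurons. In bulk RNA of sorted cells, fewer cells of a type and less RNA per cell cannot be told apart.

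Each arm was read by a longer and a shorter probe, each with 10 spots per array. The sequences are shown because the ratio between the arms rests on these oligonucleotides, and the last base, in capitals, is the base that the longer probe has and the shorter lacks. Probes are written 5′ to 3′.
miR-124, longer probe of 15 bases: ggcattcaccgcgtG
miR-124, shorter probe of 14 bases: ggcattcaccgcgt
miR-124*, longer probe of 17 bases: atcaaggtccgctgtgA
miR-124*, shorter probe of 16 bases: atcaaggtccgctgtg

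The stretches of the miRNAs that the longer probes pair with are their reverse complements, written here in DNA letters with the base read by the longer probe alone in capitals.
Stretch of miR-124: Cacgcggtgaatgcc
Stretch of miR-124*: Tcacagcggaccttgat
Outside the 2 arms, no probe for another mouse miRNA shared a run of more than 8 bases with any of these probes. G and C made up 66.7% of the longer miR-124 probe and 52.9% of the longer miR-124* probe, and their lengths differed. A ratio between the arms is therefore a ratio of signals from different oligonucleotides, and only its change between arrays can be read.

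The files place each probe at 3 positions of the mm9 mouse genome, all on the plus strand, so the array cannot tell apart the products of 3 hairpin genes. The longer miR-124 probe lies at chr2:180628793-180628807, chr3:17695728-17695742 and chr14:65209551-65209565. The longer miR-124* probe lies upstream of it at chr2:180628755-180628771, chr3:17695691-17695707 and chr14:65209512-65209528. Between the matches of the arms lie 21, 20 and 22 bases on these chromosomes, and miR-124* is the arm on the 5′ side of each hairpin. In the RefSeq annotation of GRCm38.p6, used for names and neighbours only, the genes are Mir124a-3 on chromosome 2, Mir124a-2 on chromosome 3 and Mir124a-1 on chromosome 14. Mir124a-1 overlaps the long noncoding RNA gene Mir124a-1hg and has Msra as a neighbour, Mir124a-2 overlaps the long noncoding RNA gene Mir124-2hg and a further miRNA gene, Gm51272, and Mir124a-3 overlaps no other gene and has Ythdf1 as a neighbour.

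The arrays differed in brightness. The number of miRNAs read well above background was 76 to 170 on E16 arrays and 119 to 206 on E13 arrays, counting a probe when at least 0.5 of its spots carried the scanner's flag. E16 replicate 4 was the dimmest, with 76 miRNAs well above background and a 75th percentile of signal of 109, against 282 to 748 on the other E16 arrays and 162 to 490 on the E13 arrays. Levels were therefore scaled by that percentile, taken over the 126 probes well above background on all 8 arrays, and the log2 of the scaled signal is the level used below. The miRNAs listed for blood and microglia (6), endothelium (2), mural cells and smooth muscle (2), muscle (3) and liver (1) were well above background on no array. Both miRNAs listed for oligodendrocytes, miR-219 and miR-338-3p, were well above background on at least 1 array of each stage. Their summed scaled signal was 0.0969 to 0.264 on E16 arrays and 0.157 to 0.239 on E13 arrays. The 7 miRNAs listed for neurons, miR-124 among them, were each well above background on at least 1 E13 array, miR-218 on only 1 of 4. At E16, 6 of 7 were so on at least 1 array. The sums for these 7 were 0.495 to 1.86 on E16 arrays and 1.12 to 1.38 on E13 arrays. The part of neurons or other cells in the values of the arms was not tested.

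miR-124 was clearly measured in every library. On all 8 arrays each of the 10 spots of its longer probe was well above background. The unscaled signal of that probe was 782, 417, 190 and 30.6 on E16 replicates 1 to 4. The E13 replicates 1 to 4 gave 119, 151, 369 and 185. The E13 values lay inside the range of the E16 values, which held both the brightest and the dimmest array. Spots of 1 array agreed closely, with a coefficient of variation of 1.78% to 9.26%, so the differences between arrays were far larger than those between spots.

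**Figure D1:**
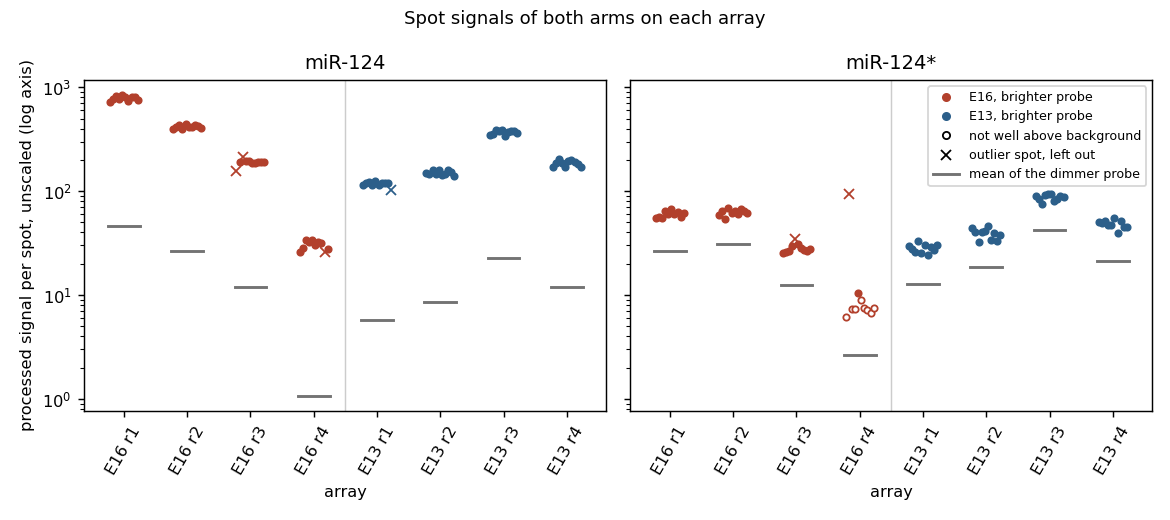
Processed signal of the spots of each arm's brighter probe (y axis, unscaled, log scale) on each array (x axis), E16 in red and E13 in blue. Filled points were well above background, open points were not, crosses are spots with an outlier flag that were left out, and grey bars are means of the dimmer probe. The spots of miR-124 lie well above background on every array, while most of those of miR-124* on E16 replicate 4 do not.

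After scaling, the level of miR-124 was 0.36, -0.84, -0.57 and -1.83 on E16 replicates 1 to 4, on the log2 scale. The levels on E13 replicates 1 to 4 were -0.45, -1.07, -0.41 and -0.67. E16 replicate 1 lay above every E13 array, E16 replicate 4 lay below every one, and E16 replicates 2 and 3 lay among them. The means were -0.72 ± 0.90 at E16 and -0.65 ± 0.30 at E13 (SD, n = 4 each). Their difference of -0.07 (E16 minus E13, SE 0.41, 95% interval -1.0 to 0.86, from the limma fit across 153 miRNAs) was smaller than the spread between arrays of either stage, and the interval leaves room for a change of nearly 1 log2 unit in either direction. Leaving out 1 array moved it between -0.43, without E16 replicate 1, and 0.30, without E16 replicate 4.

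**Figure D2:**
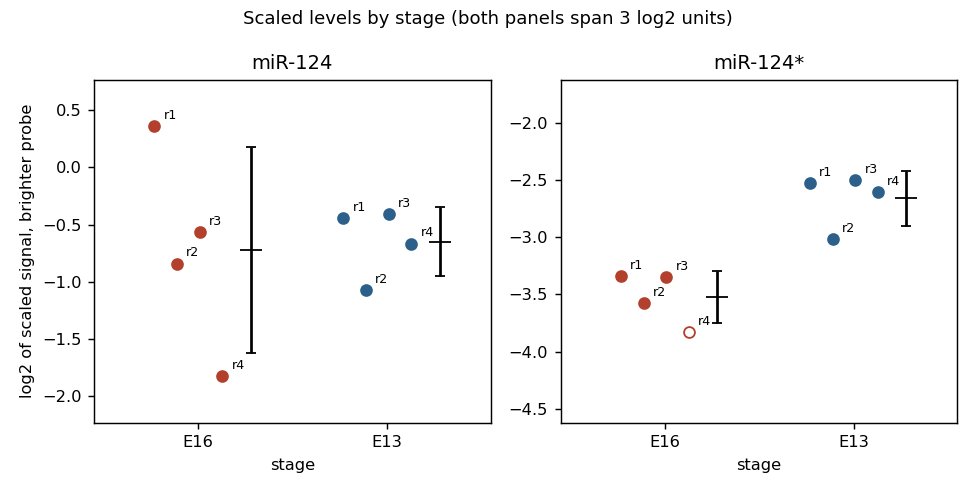
Log2 scaled signal (y axis) of miR-124 (left panel) and miR-124* (right panel) by stage (x axis), with E16 in red and E13 in blue. Points are arrays labelled by replicate, the open point was not well above background, bars are the mean ± SD of 4 arrays, and both panels span 3 log2 units. The E16 arrays of miR-124 reach beyond the E13 arrays on both sides, while those of miR-124* lie below them.

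The spread of miR-124 among E16 arrays was 4.56-fold from the lowest to the highest scaled signal, against 1.58-fold among E13 arrays. E16 replicate 1 was highest and E16 replicate 4 lowest in each of the 11 versions of the values compared, which differ in scaling, background correction or the averaging of spots and probes and include the deposited value table. The SD ran from 0.61 to 2.03 over the E16 arrays and from 0.11 to 0.70 over the E13 arrays in these versions, and was larger at E16 in all 11. Without E16 replicate 4 the SD over the E16 arrays was 0.63, and without E16 replicate 1 it was 0.66, so with either left out the SD still exceeded the 0.30 of the E13 arrays. On E16 replicate 4, miR-124 lay 1.11 below its stage mean (deviation -1.11), where the median deviation of the 153 tested miRNAs was -0.36 and 7 miRNAs lay farther below.

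A wide spread at E16 was common among the miRNAs. In 115 of the 153 tested miRNAs (75.2%) the SD was larger over the E16 arrays than over the E13 arrays. Of the 75 miRNAs with a readable probe on every array, miR-124 had the 9th largest SD at E16, where the median was 0.32, and the 30th largest at E13, where the median was 0.26. In 14 of these 75 the SD at E16 exceeded that at E13 by at least as large a factor as in miR-124 (2.97, itself included). Without E16 replicate 4 miR-124 ranked 8th of the 75, and the median SD was 0.23.

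**Figure D3:**
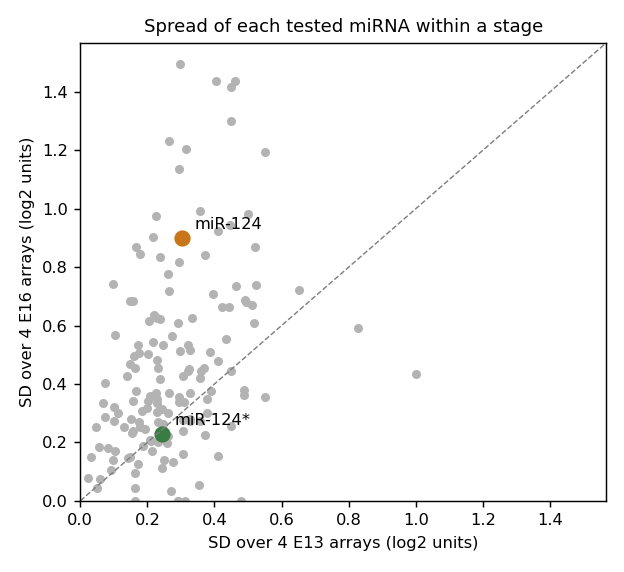
SD of the log2 level over 4 E16 arrays (y axis) and over 4 E13 arrays (x axis) for each of 153 tested miRNAs, with miR-124 in orange, miR-124* in green and the line of equal spread dashed. miR-124 (0.90 and 0.30) lies with the miRNAs of wide E16 spread, and miR-124* (0.23 and 0.24) lies near the line.

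miR-124* was read well above background on 7 of the 8 arrays. The unscaled signal of its longer probe was 60.1, 62.6, 27.6 and 7.66 on E16 replicates 1 to 4. The E13 replicates 1 to 4 had signals of 28.2, 39.1, 86.8 and 48.3. All 10 spots were well above background on every array but E16 replicate 4, where 2 of 10 were, 1 of them a spot with an outlier flag and a signal of 94.7. On that array the lowest mouse probe that counted as well above background had a signal of 9.44, so the value of miR-124* there is a dim one and its ratio is the least certain of the 8.

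After scaling, miR-124* stood at -3.34, -3.58, -3.35 and -3.83 on E16 replicates 1 to 4. Its log2 levels on E13 replicates 1 to 4 were -2.52, -3.02, -2.50 and -2.60. The highest E16 array lay below the lowest E13 array, and the order of E16 replicates 1 and 4 was as for miR-124, but over a far smaller range, 1.40-fold among E16 arrays and 1.43-fold among E13 arrays. The means were -3.52 ± 0.23 at E16 and -2.66 ± 0.24 at E13 (SD, n = 4 each), a difference of -0.86 (SE 0.18, 95% interval -1.28 to -0.44), or 1.82-fold higher at E13. Without E16 replicate 4 the difference was -0.76.

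The size of the difference of miR-124* and its separation by stage depended on how arrays were scaled and on whether the flagged spot was kept. Over all 153 tested miRNAs the median difference was -0.40, so miR-124* lay -0.46 from it and miR-124 lay 0.33 above it. With a percentile over every mouse probe, most of them near background, the median of all miRNAs was 0.42, and the differences were -0.04 for miR-124*, with overlapping stages, and 0.75 for miR-124, so the sign of the difference of miR-124 turned. A change of percentile moves all miRNAs of an array by the same amount and leaves the distances from the median as they were. Under quantile normalization these distances were -0.80 for miR-124* and 0.18 for miR-124. After normexp correction followed by quantile normalization they were -0.20 and 0.07. Without E16 replicate 1 miR-124 lay -0.0018 from the median. The E16 arrays of miR-124* lay below all E13 arrays in 7 of the 11 versions of the values and overlapped them in 4. Those 4 were the percentile over all probes, no scaling, outlier spots kept and the deposited value table. With outlier spots kept and in the value table, which both hold the flagged spot, E16 replicate 4 was the highest E16 array for miR-124*.

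As the background to these values, limma called 51 of the 153 tested miRNAs at an adjusted p under 0.05 (33.3%), 11 higher at E16 (7.19%) and 40 lower (26.1%). Scaled by every mouse probe instead, the split was 47 higher and 16 lower. The stages did not overlap in 59 miRNAs (38.6%), and in 47 of them (30.7%) E16 was the lower one, as in miR-124*. The separation of miR-124* was therefore shared with a large part of the array.

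The signal ratio of the arms is free of the scaling between arrays, since both arms were read on the same array. The signal of miR-124* was 7.68%, 15.02%, 14.5% and 25.02% of that of miR-124 on E16 replicates 1 to 4. The share on E13 replicates 1 to 4 was 23.7%, 25.9%, 23.5% and 26.1%. The E13 arrays agreed within 2.58 percentage points, and the 3 E16 arrays on which miR-124* was well above background lay below all of them. E16 replicate 4, where miR-124* was not, lay within the E13 range. The mean ratio was 15.6% ± 7.14 at E16 and 24.8% ± 1.39 at E13 (SD, n = 4 each), and 12.4% ± 4.10 at E16 without E16 replicate 4 (SD, n = 3). The standard errors over spots ran from 0.214 to 1.62 percentage points; they cover the spots of 1 array and not the spread between samples.

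**Figure D4:**
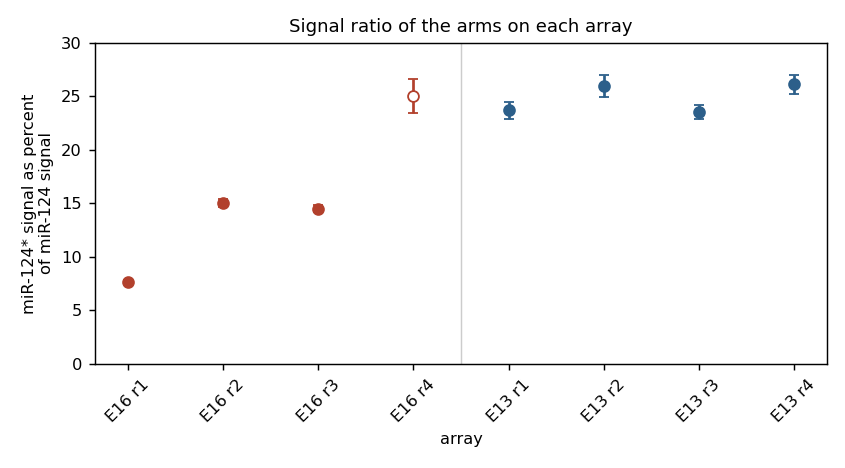
Signal of miR-124* as a percent of that of miR-124 (y axis) on each array (x axis), E16 in red and E13 in blue, with the standard error over spots as bars. The 3 filled E16 points lie between 7.68% and 15.02% and the E13 points between 23.5% and 26.1%; the open point is E16 replicate 4, where miR-124* was not well above background.

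On the log2 scale the ratio was -2.81 ± 0.70 at E16 and -2.01 ± 0.08 at E13 (SD, n = 4 each), a difference of -0.79, or -1.06 without E16 replicate 4. Among the E16 arrays the ratio ran opposite to the level of miR-124: it was lowest on E16 replicate 1, where miR-124 was brightest, and highest on E16 replicate 4, where miR-124 was dimmest. This order follows in part from the arithmetic, since miR-124 is the denominator and miR-124* varied little.

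The ratio was also read in other ways. From the scanner's total signal per miRNA, which combines the probes of an arm, the ratio was 10.4%, 21.1%, 19.8% and 25.02% on E16 replicates 1 to 4. On E13 replicates 1 to 4 that ratio was 34.3%, 36.3%, 32.9% and 35.2%, and all E16 arrays lay below all E13 arrays. On E16 replicate 4, where neither shorter probe had a spot well above background, the total-signal ratio equalled that of the longer probes (25.02%). On every other array it was higher than that of the longer probes. The separation of E16 replicate 4 in this reading therefore sets unlike readings side by side. With the mean of the 434 negative control spots of each array subtracted, the E16 arrays ran from 7.47% to 20.6% and the E13 arrays from 22.7% to 25.2%, again without overlap. This subtraction was added after the values had been seen. With the flagged spot of 94.7 kept, the ratio on E16 replicate 4 was 54.2%, above every E13 array.

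The shorter probes were dimmer for both arms, and by different factors. Neither shorter probe had a spot well above background on E16 replicate 4, and the shorter miR-124 probe was not well above background on E13 replicates 1 and 2, so no factor or ratio is given there. On the other 5 arrays the longer miR-124 probe was 15.6-fold to 16.8-fold brighter than the shorter. On the 7 arrays other than E16 replicate 4 the longer miR-124* probe was 2.01-fold to 2.29-fold brighter than the shorter. The ratio of miR-124* to miR-124 from the shorter probes was 56.6%, 117% and 103% on E16 replicates 1 to 3, against 184% and 178% on E13 replicates 3 and 4. The 3 E16 arrays lay below these 2 E13 arrays. From the longer probes miR-124* had the lower signal on all 8 arrays, and from the shorter ones it had the higher signal on 4 of these 5, so which arm was brighter depended on the probe.

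The arrays came from 3 slides, and E16 arrays lay in row 1 and E13 arrays in row 2 of each slide, so the row cannot be told apart from the stage. Slide 1 held E16 replicate 1 alone of the 8. Within slide 2, E16 replicates 2 and 3 had ratios of 15.02% and 14.5%, against 25.9% and 23.7% on E13 replicates 2 and 1, a log2 difference of -0.75. In the same slide miR-124 differed by 0.05 and miR-124* by -0.69. Within slide 3, which held E16 replicate 4 with E13 replicates 3 and 4, the log2 ratio differed by 0.01, with differences of -1.29 for miR-124 and -1.28 for miR-124*. The lower ratio at E16 was thus found in slide 2 and not in slide 3, where the lone E16 array had miR-124* near background. With the slide as a block in the fit, the ratio differed by -0.44, miR-124 by -0.48 and miR-124* by -0.93.

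The arm ratios of other hairpins are given beside that of miR-124 as a description, chosen after the values had been seen, and since the hairpin was itself selected on these signals its place among them is no finding. Of 17 hairpins with both arms tested, the stages did not overlap in the arm ratio of 5 (29.4%), and miR-124, with a difference of -0.79, was not among these 5 because of E16 replicate 4. The difference of largest size over all 8 arrays was that of miR-7a* to miR-7a, 1.35, without overlap. When only arrays with both arms well above background were used, 15 hairpins could be compared, miR-7a no longer among them, and 8 of them (53.3%) did not overlap, miR-124 included. Its log2 ratio of star to guide arm differed by -1.06, the lowest value of the 15, and let-7d had the highest. miR-9 is a miRNA of neural progenitors and neurons, and both of its arms were readable on all 8 arrays. The log2 ratio of miR-9* to miR-9 differed by 0.42 in the opposite direction, without overlap. The stages thus did not overlap in a large share of the hairpins compared. Over arrays with both arms well above background this share rests on fewer arrays, which makes a lack of overlap easier. For miR-340, miR-20a, miR-324 and miR-362, all without overlap there, it sets 3 E16 arrays against 2 E13 arrays.

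**Figure D5:**
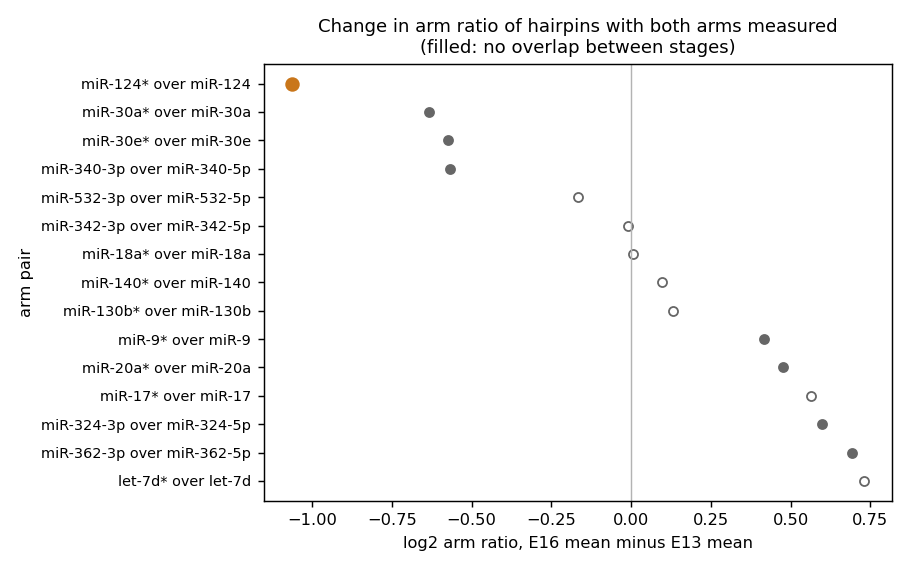
Difference in the log2 arm ratio, E16 mean minus E13 mean (x axis), for 15 hairpins with both arms tested (y axis), over the arrays on which both arms were well above background. Filled points mark hairpins without overlap between stages and open points those with overlap; miR-124, in orange, is at -1.06, and at -0.79 over all 8 arrays.

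The arms did not run together over the arrays. Likeness was measured as the root mean square difference between log2 profiles over the 8 arrays, each centred on its own mean, with the miRNAs readable on every array as candidates. The arms differed by 0.59, and 38 of 74 candidates lay nearer to miR-124 than miR-124* did. The 5 nearest to miR-124 were miR-135b (0.25), miR-21 (0.26), miR-350 (0.29), miR-128 (0.30) and miR-106b (0.31), where the median candidate was at 0.58. miR-128, another miRNA abundant in neurons, had log2 levels of -1.66, -2.30, -2.35 and -3.52 on E16 replicates 1 to 4 and of -2.68, -2.30, -2.12 and -2.14 on E13 replicates 1 to 4. Like miR-124, it was highest on E16 replicate 1 and lowest on E16 replicate 4. miR-135b shared both extremes, with a log2 level of -1.72 on E16 replicate 1 and -3.20 on E16 replicate 4, and so did miR-21, with -0.13 and -1.44.

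Nearest to miR-124* were miR-20b (0.16), miR-18a (0.17), miR-324-5p (0.18), miR-130b (0.18) and miR-20a (0.21), where the median of 75 candidates was 0.50. miR-18a and miR-20a come from the miR-17-92 cluster and miR-20b from its paralogue on the X chromosome, which are known for promoting proliferation. For miR-18a the log2 level was -0.96, -1.17, -0.83 and -1.63 on E16 replicates 1 to 4 and 0.16, -0.33, 0.12 and 0.07 on E13 replicates 1 to 4. As in miR-124*, the E16 arrays lay below the E13 arrays, and E13 replicate 2 was the lowest of its stage. All these profiles share the same 8 libraries and their scaling.

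The other miRNAs known from neurons were described from a list of 15, chosen with earlier results of these data known. All 15 were on the array, 6 were well above background on no array, and 8 were tested. By limma across 153 miRNAs, 0 of the 8 rose (0 also at an unadjusted p under 0.05), 4 fell and 4 did not pass the adjusted threshold, against 7.19% rising and 26.1% falling of all tested. The median difference of the 8 was -0.67, against -0.40 of all tested. None of those that fell was well above background on all 4 E16 arrays. miR-7a, miR-137 and miR-135a were so on 3 and miR-153 on 0. Over the 75 miRNAs readable on every array, limma called 9 higher and 10 lower, so the share that fell depended on dim miRNAs.

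Among those that fell, miR-7a, a miRNA of neurons and endocrine cells, had log2 levels of -3.81, -4.20, -3.90 and -4.42 on E16 replicates 1 to 4. On E13 replicates 1 to 4 it had -2.26, -2.15, -2.42 and -2.06, all higher. The difference was -1.86 (SE 0.18, limma adjusted p = 5.8e-05). On E16 replicate 4 the signal of miR-7a (5.08) lay below the lowest probe well above background there (9.44), so that level is not exact. miR-153, a brain miRNA, was well above background on none of the E16 arrays and on all E13 arrays, which makes it at least 2.68-fold lower at E16 (limma adjusted p = 2.6e-05). Here the bound sets the E13 mean against the higher of the miRNA's own signal and the lowest probe well above background on each E16 array. On E16 replicate 4 that lowest probe, once scaled, lay above the E13 mean of miR-153, so this array alone shows no fall. In the fit all 4 E16 values of miR-153 were set to the lowest level of the scale. Their SD of 0 is not a measured spread, and the p-value rests in part on it. miR-153 also passed the filter of 4 or more arrays through the E13 arrays alone, where it was higher. Its p-value and its place among those that fell are therefore no independent support for a fall. miR-135a fell by 1.498 on the log2 scale (SE 0.32, limma adjusted p = 0.0051). On E16 replicate 4 its signal of 3.40 lay below the lowest probe well above background there (9.44), so this size is not exact. The call of miR-135a was lost in 4 alternative settings, among them within slide 2 (adjusted p = 0.097) and when scaled by every mouse probe (0.081). Its relative miR-135b had a difference of -0.31 that did not pass (limma adjusted p = 0.44).

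miR-137, known for a role in neuronal maturation, had a difference of -1.02 (SE 0.30, limma adjusted p = 0.026). Its value on E16 replicate 4 was set to the lowest level of the scale, so this size is not exact. The call was lost in 11 of 22 alternative settings, among them without E13 replicate 1 (-0.94, adjusted p = 0.079), without E13 replicate 4 (-0.98, adjusted p = 0.074) and without E16 replicate 2 (-1.04, adjusted p = 0.057), where the difference was nearly as large or larger. Differences that did not pass were -0.15 for miR-128, 0.11 for miR-129-3p and 0.17 for miR-218. The miRNAs of the neuron list thus did not move as 1 group. For miR-124 and miR-128 the stage difference was smaller than the spread among E16 arrays. By contrast, miR-7a had a lower value on every E16 array than on any E13 array, with E16 replicate 4 not well above background.

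The arms of miR-9 offer a hairpin measured well above background on every array. Its log2 level was 2.26, 2.21, 2.51 and 1.78 on E16 replicates 1 to 4 and 2.35, 1.94, 2.38 and 2.44 on E13 replicates 1 to 4, so the stages overlapped. The difference was -0.09 for miR-9 (limma adjusted p = 0.76) and 0.33 for miR-9* (limma adjusted p = 0.37). As with miR-124, E16 replicate 4 was the lowest E16 array for both arms, but the E16 SD was 0.30 for miR-9 and 0.36 for miR-9*, against 0.90 for miR-124.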

How the data were processed

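The deposited scanner files, 1 for each array, come from Agilent Feature Extraction 10.7.3.1, per the file headers, and give intensity values with the background subtracted per spot and no scaling from array to array. Other deposited columns are flags per spot for background, outliers and saturation. A table of values was deposited as well. The deposited table has log2 values of 1187 spots and 86 miRNAs, each column with a median of 6.90 and ranked as the processed signal (Spearman correlation 1). It was read as quantile-normalized with higher meaning brighter, the sources used here do not give its software, and it served as an alternative. It holds 10 spots of miR-124 and 2 of miR-124*.

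Control and outlier spots were left out, spots of a probe averaged, and arrays divided by the 75th percentile over 126 probes. A floor of -5.96 (log2) was set, and the probe brightest on average stood for its miRNA. Tested were the 153 miRNAs that had, on 4 or more arrays, a probe well above background, with limma 3.58.1 in R 4.3.3, E16 minus E13, two-sided, Benjamini-Hochberg, threshold 0.05. Precision is limited by the number of arrays, 4 per stage. The fit was tested on simulated data.

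Named miRNAs are both arms, the tested members of the neuron list, both arms of miR-9 and the 5 nearest profiles of each arm. The members and lists were chosen with earlier results of these data known. Replicate numbers come from the sample titles. Same-numbered arrays had correlations of deviations of -0.10, 0.07, 0.27 and -0.15, and were not treated as pairs.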

Additional observations from a re-analysis of the deposited data

Results flagged for a closer look

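In 3 of 45 groups of 4 arrays that were screened, 1 array lay far from the others of its stage, where about 1 group in 20 is picked by chance. The shorter probe of miR-124* had a log2 level of -5.37 on E16 replicate 4, against -4.58 to -4.51 on the other E16 arrays, and the gap was 0.915 of the range of the 4 arrays. No spot of that probe was well above background on that array. miR-9 had a log2 level of 1.94 on E13 replicate 2, against 2.35 to 2.44 on the other E13 arrays, with a gap of 0.831 of the range. miR-20a had a log2 level of 1.32 on E13 replicate 2, against 1.67 to 1.69 on the other E13 arrays, with a gap of 0.945 of the range. On the same array both arms of miR-124 had their lowest E13 level, -1.07 for miR-124 and -3.02 for miR-124*.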

How the results depend on the processing

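All values are E16 minus E13 on the log2 scale, and the cause was not tested unless said. The difference of miR-124 stayed within 1 SD between arrays of its value of -0.07 in 22 settings. In some of these it could not differ: without the filter, over the miRNAs readable on every array and with the replicate number as a block. The difference came to 0.75 when scaled by every mouse probe, -1.29 within slide 3, and -0.43 to 0.30 with 1 array left out. That of miR-124* (-0.86) was -0.043 when scaled by every probe, -0.56 without scaling, -0.23 with normexp, whose offset of 50 exceeds most of its signals, -0.59 with outlier spots kept, -0.14 in the value table, whose 2 spots include the flagged one, -1.28 within slide 3, and -0.98 to -0.76 with 1 array left out. Values named normexp here were also quantile-normalized, in place of the percentile scaling. The log2 arm ratio (-0.79) was -0.27 with normexp, -0.090 in the value table and 0.013 within slide 3. With 1 array left out it was -1.06 to -0.49. The value table for miR-124* and the ratio, and the subtraction of control spots (-0.87), were added after the data were seen.

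Calls by limma, 11 higher and 40 lower, were 47 and 16 when scaled by every probe, 13 and 23 under quantile normalization, 19 and 31 after normexp, 13 and 11 in the value table, 9 and 10 over the miRNAs readable on every array, where fewer were tested, 9 and 25 within slide 2, and 14 and 88 within slide 3. Without scaling limma called 1 higher and 0 lower, and 6 and 5 at an unadjusted p under 0.05; no other tool was run. With 1 array left out there were 9 to 17 higher, the highest without E16 replicate 4, and 29 to 54 lower. The sign turned in some settings, with an adjusted p under 0.05 only for miR-218 (0.0058) and miR-9* (0.044) within slide 3 and for miR-9 (0.012) when scaled by every probe. miR-128 was 0.67 when scaled by every probe, 0.033 under quantile normalization, 0.078 without scaling, 0.062 after normexp, 0.16 within slide 2, and -0.42 to 0.21 with 1 array left out, the highest without E16 replicate 4. miR-218 was -0.23 when slides were blocked, -1.41 within slide 3, and -0.20 to 0.60 with 1 array left out, the lowest without E16 replicate 1. miR-135b was 0.51 when scaled by every probe. miR-9 was 0.73 when scaled by every probe, 0.14 without scaling, 0.21 within slide 2, and -0.20 to 0.048 with 1 array left out, the highest without E16 replicate 4. miR-9* was -0.057 under quantile normalization, -0.057 after normexp and -0.50 within slide 3. Calls absent from the main values appeared for miR-9* (1.15, adjusted p = 0.0040) and miR-129-3p (0.93, adjusted p = 0.010) when scaled by every probe, and for miR-128 (-1.40, adjusted p = 0.0052), miR-135b (-1.13, adjusted p = 0.0064) and miR-9 (-0.63, adjusted p = 0.020) within slide 3.

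With the replicate number as a block the differences stayed at -0.07, -0.86 and -0.79 for miR-124, miR-124* and their ratio. They could not change, since each number holds 1 array of each stage and the block can move only the standard error. There were 10 higher and 35 lower calls. That of miR-137 was lost (adjusted p = 0.053). Over all settings the calls of miR-137 and miR-135a were lost in 11 and 4 of 22, and those of miR-7a and miR-153 in 1, without scaling. Signals of miR-124* near background on E16 replicate 4 limit the ratio there.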
